A study of Mus musculus with 8 samples.

Results

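The 9 long noncoding RNAs described here are Neat1, Malat1, Gas5, Snhg1, Snhg3, Snhg5, Snhg12, Snhg15 and Mir155hg. They were chosen by symbol, as a nuclear pair, 6 hosts of small nucleolar RNAs and the host of a microRNA, and they are 9 of the 55487 genes in the table. Each of the 9 had a mean of at least 1 TPM and was tested, among 11796 genes tested in all. RNA was sequenced from J774A.1, an established mouse macrophage line, after 24 h with LPS (1 μg/mL), the bacterial cell wall component that activates macrophages, or with the same LPS dose plus 1 mM UDCA (ursodeoxycholic acid, a bile acid). Each group held 4 libraries, and every library had LPS, so values without LPS were not analysed here. The doses come from the study's methods, where UDCA is described with or without LPS, and the groups come from the sample labels. The labels do not say whether the libraries of a group came from separate cultures, so the p-values measure the spread between these libraries only. Values are TPM, the reads of a gene divided by its length and scaled per library, which allows levels to be compared between genes. The rows of the table summed to 973190 to 977485 TPM in the LPS libraries and 958918 to 962737 TPM with UDCA, without overlap, and the part of this gap in the values below was not tested. The number of reads per library cannot be read from TPM, so depth is unknown.

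Neat1 and Malat1 are transcribed from neighbouring genes and stay in the nucleus. Neat1 is the scaffold RNA of paraspeckles, nuclear bodies that hold back RNAs and RNA-binding proteins, and Malat1 gathers in nuclear speckles, where splicing factors are stored. A snoRNA host gene carries small nucleolar RNAs (snoRNAs) in its introns. After splicing, the snoRNA is trimmed out and guides the modification or cleavage of ribosomal RNA, while the spliced host RNA often enters ribosomes and is removed by nonsense-mediated decay. Several hosts begin with a run of pyrimidines, the feature that couples ribosomal protein mRNAs to growth signals. Mir155hg, also called BIC, is the precursor of miR-155, a microRNA known for its induction by LPS in macrophages.

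The intronic cargo shows what separates the 6 hosts. GENCODE M21, on GRCm38, places 28 snoRNA genes at 26 loci wholly inside them on the same strand, with lengths from 60 to 205 bases. Gas5 holds 10 genes at 9 loci, Snhg1 holds 8, Snhg12 holds 5 genes at 4 loci, Snhg3 and Snhg5 hold 2 each and Snhg15 holds 1. The C box (TGATGA, searched in the first 25 bases) and the D box (CTGA, in the last 25) together mark box C/D snoRNAs, which guide methylation of ribosomal RNA. An ACA within 8 bases of the 3′ end marks box H/ACA snoRNAs, which mostly guide conversion of uridine to pseudouridine. Of the 28, 17 had both C and D boxes, 6 had an ACA and 5 had neither by these letters, against 20.7% and 44.3% of the 1507 annotated snoRNA transcripts with C and D boxes and with an ACA. The sequences below show a guide of each kind with its boxes in capitals, read 5′ to 3′ on the strand of the host from GRCm38. Snord47 and Snord80 lie in Gas5 at chr1:161038082-161038158 and chr1:161037601-161037681 on the plus strand, and Snord50a lies in Snhg5 at chr9:88521529-88521600 on the minus strand. Snord99 and Snora61 lie in Snhg12 at chr4:132310691-132310764 and chr4:132310240-132310369 on the plus strand, and Snora9 lies in Snhg15 at chr11:6528033-6528165 on the minus strand.
Snord47: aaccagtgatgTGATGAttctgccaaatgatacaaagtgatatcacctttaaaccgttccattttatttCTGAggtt
Snord80: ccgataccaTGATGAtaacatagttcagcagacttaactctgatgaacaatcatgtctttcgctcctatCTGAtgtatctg
Snord50a: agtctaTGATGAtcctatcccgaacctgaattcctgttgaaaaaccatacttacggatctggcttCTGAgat
Snord99: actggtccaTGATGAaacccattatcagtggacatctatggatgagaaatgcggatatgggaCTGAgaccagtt
Snora61: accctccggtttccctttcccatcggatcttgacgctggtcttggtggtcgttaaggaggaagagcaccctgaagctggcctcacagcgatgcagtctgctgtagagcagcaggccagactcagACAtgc
Snora9: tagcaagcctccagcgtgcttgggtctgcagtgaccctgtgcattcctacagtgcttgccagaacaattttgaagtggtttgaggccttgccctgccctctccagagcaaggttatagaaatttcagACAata

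Snora73a and Snora73b, the mouse U17 RNAs, take part in cleavage of the ribosomal RNA precursor and are the cargo of Snhg3. They lie at chr4:132352775-132352979 and chr4:132352322-132352526 on the minus strand. Their 205 bases are the same at 198 positions (96.6%) and differ at 7, so short reads cannot always be placed on one or the other. Snord50a and its copy Snord50b in Snhg5 differ at 1 of 72 positions. The ACA near the end is in capitals.
Snora73a: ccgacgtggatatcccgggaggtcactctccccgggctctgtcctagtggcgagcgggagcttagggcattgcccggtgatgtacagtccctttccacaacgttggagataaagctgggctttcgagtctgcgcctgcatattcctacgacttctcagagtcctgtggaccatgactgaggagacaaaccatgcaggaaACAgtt
Snora73b: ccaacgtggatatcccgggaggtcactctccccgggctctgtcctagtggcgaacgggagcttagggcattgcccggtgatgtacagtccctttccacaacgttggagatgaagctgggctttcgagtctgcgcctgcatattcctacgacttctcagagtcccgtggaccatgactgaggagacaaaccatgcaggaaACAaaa

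The start sites were compared for the pyrimidine run. RefSeq promoters (GRCm38.p6) were found for 8 of the 9 genes, with 2 starts for Gas5 and none for Neat1, and 20 bases on each side of the start were read. The capitals mark a run of at least 5 C or T whose first base lies from 5 before to 10 after the annotated start. Such a run stood in 6 of the 9 promoters, against 29.9% of all 32851 promoters and 45.2% of 73 ribosomal protein promoters. The 6 are the second start of Gas5 and the starts of Snhg1, Snhg3, Snhg5, Snhg12 and Mir155hg. The Mir155hg window, at chr16:84713003-84713042, is uncertain, since GENCODE begins that gene at 84703167, and without it the run stood in 5 of 8. The GENCODE starts of Gas5, Snhg1, Snhg5 and Snhg12 also differ from the RefSeq starts, by fewer bases. The rule depends on the start used, and the run was not sought from the GENCODE starts. Snhg15, Malat1 and the other start of Gas5 lacked the run. The windows are at chr1:161035146-161035185 (Gas5, plus strand), chr19:8723467-8723506 (Snhg1, plus), chr4:132353667-132353706 (Snhg3, minus), chr9:88522878-88522917 (Snhg5, minus), chr4:132308658-132308697 (Snhg12, plus) and chr11:6528741-6528780 (Snhg15, minus).
Gas5: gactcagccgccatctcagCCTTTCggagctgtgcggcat
Snhg1: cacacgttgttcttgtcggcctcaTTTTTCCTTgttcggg
Snhg3: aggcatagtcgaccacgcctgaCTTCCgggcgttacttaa
Snhg5: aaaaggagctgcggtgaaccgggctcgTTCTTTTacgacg
Snhg12: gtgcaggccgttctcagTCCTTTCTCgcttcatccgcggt
Snhg15: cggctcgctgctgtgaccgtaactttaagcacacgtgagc

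Factor motifs were counted on both strands of the same promoters, 250 bases before to 50 after the start. The core of NF-κB sites (GGG, any 5 bases, CC) was in 3 of the 9 (both starts of Gas5, and Snhg15) and in 50.8% of all promoters. The E-box CACGTG was in 1 (Snhg15) and in 7.15%. TGANTCA (AP-1), TGATGNAA (the amino acid response element) and GAAA repeated after any 2 bases (interferon response) were in 0 of 9, against 7.81%, 3.97% and 3.44% of promoters. These counts describe letters only.

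The study's methods call a gene by a 2-fold minimum and an FDR (Benjamini-Hochberg adjusted p, here from limma over all genes tested) under 0.05. By both thresholds 2 of the 9 RNAs were higher with UDCA and 0 were lower. Over all genes tested, 8.71% were higher and 8.44% lower at these thresholds. By FDR alone, 5 of the 9 rose (40.2% of all genes), 2 fell (32.3% of all genes) and 2 did not pass. With median-of-ratios scaling 4 rose and 3 fell, and with quantile normalization 4 rose and 2 fell. In 6 RNAs every library of the LPS group lay on the same side of every library with UDCA, with 4 higher (37% of all genes) and 2 lower (29.9%). The median log2 fold change of the 9 was 0.31, against 0.08 over all genes tested. The counts by FDR are thus close to those of genes in general, and the 9 RNAs split by direction. Fold changes are on the log2(TPM + 1) scale, where low values such as those of Mir155hg are drawn towards 0. In bulk RNA, more copies per cell and more cells that hold them cannot be told apart.

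**Figure D1:**
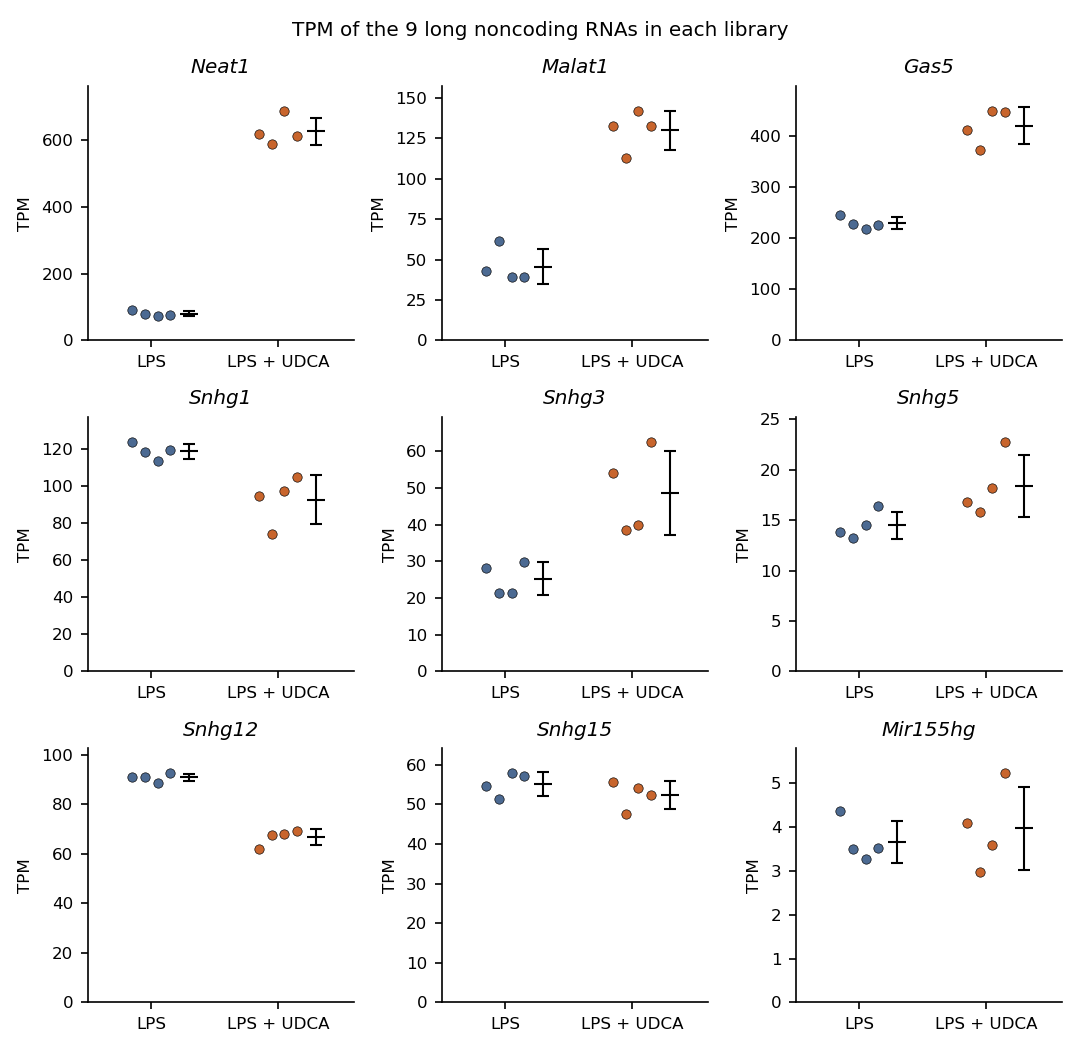
Each panel plots the TPM (linear axis from 0) of 1 long noncoding RNA in the 4 LPS and 4 LPS + UDCA libraries, with a point per library and the mean ± SD of the group at its right. Neat1 went from a mean of 80.0 to 625 TPM, while the libraries of the groups overlapped for Snhg5, Snhg15 and Mir155hg.

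Neat1 (chr19:5824708-5845478, minus strand) had 89.86, 79.75, 74.01 and 76.55 TPM in the LPS libraries and 616.10, 588.47, 684.83 and 610.60 TPM with UDCA. Every library with UDCA was far above every LPS library. The means were 80.0 ± 6.95 and 625 ± 41.6 TPM (SD, n = 4), a 7.81-fold difference in TPM, with a log2 fold change of 2.95 (SE 0.067, 95% interval 2.80 to 3.10, limma adjusted p = 2e-09). Only 0.127% of the genes tested had a larger log2 fold change, and Neat1 was the 16th highest. Its level moved from the 86.7th to the 98.1st percentile of the genes tested. GENCODE lists 4 Neat1 transcripts, from 711 to 20771 bases, and a gene level value cannot tell the short form, which ends in a poly(A) tail, from the long form that builds paraspeckles. The library kit selects RNA by its poly(A) tail, so the long form, which has none, may be underrepresented.

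Malat1 (chr19:5795690-5802672, minus strand) had 42.61, 61.43, 38.91 and 39.00 TPM with LPS and 132.70, 112.92, 141.50 and 132.56 TPM with UDCA. LPS replicate 2 stood above the other LPS libraries, and the groups did not overlap. The means were 45.5 ± 10.8 and 130 ± 12.1 TPM (SD, n = 4), with a log2 fold change of 1.51 (SE 0.14, 95% interval 1.20 to 1.83, limma adjusted p = 1e-05). Without LPS replicate 2 the log2 fold change was 1.67. The mature Malat1 end is also made without a poly(A) tail, and the antisense gene Gm37376, which shares 423 of the 7030 words of 31 bases in Malat1, was at 0 TPM in 7 libraries and at 0.53 TPM in the other.

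Neat1 rose more than Malat1 within libraries. The ratio of Neat1 to Malat1 TPM was 1.30 to 2.11 in the LPS libraries and 4.61 to 5.21 with UDCA. Neat1 made up 11.6% to 13.0% of the summed TPM of the 9 RNAs with LPS and 40.5% to 44.6% with UDCA.

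Gas5 (chr1:161034422-161038539, plus strand) is named for its accumulation in growth-arrested cells and is a textbook target of nonsense-mediated decay. It had 245.48, 226.75, 217.65 and 226.09 TPM with LPS and 411.19, 371.36, 447.07 and 446.50 TPM with UDCA. No library with UDCA came near the LPS range. The means were 229 ± 11.7 and 419 ± 35.9 TPM (SD, n = 4), a 1.83-fold difference, with a log2 fold change of 0.87 (SE 0.064, 95% interval 0.72 to 1.01, limma adjusted p = 2.3e-06). It passed the FDR but not the fold change minimum.

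Snhg3 (chr4:132348014-132353686, minus strand), the U17 host, had 28.13, 21.41, 21.35 and 29.91 TPM with LPS and 53.93, 38.41, 39.83 and 62.37 TPM with UDCA. Replicates 1 and 4 were the higher pair in both groups, and the groups did not overlap. The means were 25.2 ± 4.47 and 48.6 ± 11.5 TPM (SD, n = 4), with a log2 fold change of 0.91 (SE 0.17, 95% interval 0.52 to 1.30, limma adjusted p = 0.0011). This value needs care, because 70.9% of the words of 31 bases in Snhg3 transcripts also occur in another gene. Of its 982 words, 596 are shared with the antisense gene Gm17300 and 78 with Rcc1, the nucleotide exchange factor for Ran, whose gene overlaps Snhg3 on the same strand. Rcc1 went the other way, from 58.0 ± 1.75 to 26.2 ± 1.10 TPM (SD, n = 4), with a log2 fold change of -1.12 (limma adjusted p = 6.1e-08). The ratio of Snhg3 to Rcc1 was 0.376 to 0.497 with LPS and 1.52 to 2.30 with UDCA. Gm17300 was at 0.96 to 1.76 TPM with LPS and 0.65 to 1.61 TPM with UDCA. The part of these shared words in the Snhg3 value was not tested.

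Snhg5 (chr9:88521050-88522929, minus strand), the host of U50 snoRNAs, had 13.85, 13.26, 14.51 and 16.37 TPM with LPS and 16.80, 15.79, 18.21 and 22.70 TPM with UDCA. LPS replicate 4 lay above LPS + UDCA replicate 2, so the groups overlapped. The log2 fold change was 0.31 (SE 0.11, 95% interval 0.06 to 0.56, limma adjusted p = 0.029), and the exact permutation test on TPM gave a 2-sided p of 0.057 (n = 4 per group, where 0.029 is the smallest p that 70 arrangements allow). The adjusted p was under 0.05 in 7 of 15 other fits and ranged over them from 0.005 to 0.12.

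Snhg12 (chr4:132308623-132311024, plus strand) was the most even of the 9 among LPS libraries and fell with UDCA. It had 91.11, 90.92, 88.60 and 92.36 TPM with LPS and 61.77, 67.48, 68.04 and 69.26 TPM with UDCA. Every LPS library was above every library with UDCA. The means were 90.7 ± 1.57 and 66.6 ± 3.33 TPM (SD, n = 4), a ratio of 0.734, with a log2 fold change of -0.44 (SE 0.043, 95% interval -0.54 to -0.34, limma adjusted p = 1.4e-05).

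Snhg1 (chr19:8723475-8726443, plus strand), which holds Snord22 and its group of box C/D snoRNAs, also fell. It had 123.61, 118.61, 113.34 and 119.51 TPM with LPS and 94.79, 74.31, 97.15 and 104.98 TPM with UDCA, and LPS + UDCA replicate 2 was the lowest. The groups did not overlap. The log2 fold change was -0.36 (SE 0.094, 95% interval -0.58 to -0.15, limma adjusted p = 0.0064), from means of 119 ± 4.22 and 92.8 ± 13.1 TPM (SD, n = 4).

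Snhg15 (chr11:6525591-6528760, minus strand), the host of Snora9, had 54.62, 51.28, 57.83 and 57.10 TPM with LPS and 55.61, 47.57, 54.25 and 52.43 TPM with UDCA. The groups overlapped. The log2 fold change was -0.07 (SE 0.060, 95% interval -0.21 to 0.06, limma adjusted p = 0.3), and the exact permutation test gave p = 0.29 (2-sided, n = 4 per group). With median-of-ratios scaling the value was -0.18 and the adjusted p was 0.04.

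Mir155hg (chr16:84703167-84715245, plus strand) was the least abundant. It had 4.37, 3.49, 3.27 and 3.51 TPM with LPS and 4.08, 2.98, 3.60 and 5.22 TPM with UDCA. The ranges lay over each other. The log2 fold change was 0.08 (SE 0.14, 95% interval -0.25 to 0.40, limma adjusted p = 0.64), and the exact permutation test gave p = 0.6 (2-sided, n = 4 per group). Its sign changed with the scaling. The sequence below is miR-155-5p, shown because it is the product of this host, at chr16:84714143-84714165 on the plus strand (RefSeq, GRCm38.p6), with the seed, bases 2 to 8, in capitals. Mir155 itself was listed at 0 TPM in all 8 libraries, which the kit does not capture as a short mature RNA.
miR-155-5p: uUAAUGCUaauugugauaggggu

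The order of the RNAs by mean TPM differed between the groups. With LPS it was Gas5, Snhg1, Snhg12, Neat1, Snhg15, Malat1, Snhg3, Snhg5 and Mir155hg. With UDCA it was Neat1, Gas5, Malat1, Snhg1, Snhg12, Snhg15, Snhg3, Snhg5 and Mir155hg. Neighbours whose libraries overlapped were Snhg12 and Neat1, and Snhg15 and Malat1, with LPS, and Snhg15 and Snhg3 with UDCA. All other neighbours in either order were apart. The summed TPM of the 9 was 629.47 to 693.64 with LPS and 1319.29 to 1554.48 with UDCA. For the 6 hosts alone the sums were 513.28 to 556.80 and 614.92 to 758.24 TPM.

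Host RNAs of the same class moved apart within libraries. The ratio of Gas5 to Snhg1 was 1.89 to 1.99 with LPS and 4.25 to 5 with UDCA, and the ratio of Snhg3 to Snhg12 was 0.235 to 0.324 and 0.569 to 0.901. The ratio of Neat1 to Gas5 was 0.339 to 0.366 with LPS, where Gas5 was the higher, and 1.37 to 1.58 with UDCA, where Neat1 was. Ratios within a library do not depend on the scaling of that library. Gas5 and Snhg3 rose while Snhg1 and Snhg12 fell, each without overlap. The ratios of these pairs therefore restate the changes given above and add no separate support.

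**Figure D2:**
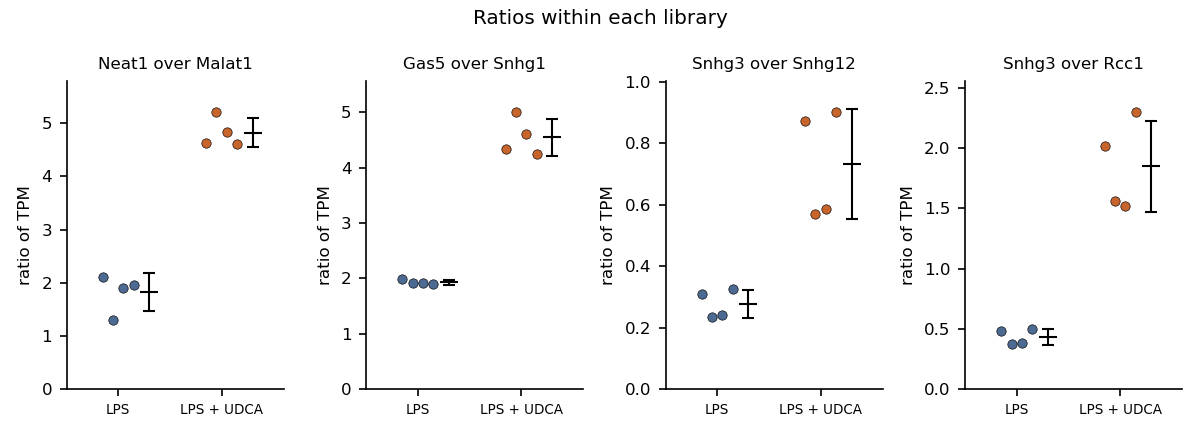
Each panel plots the ratio of TPM of a pair of RNAs within each library (linear axis from 0), with a point per library and the mean ± SD of 4 libraries at its right. In each of the 4 panels every LPS + UDCA library is above every LPS library, for example 4.61 to 5.21 against 1.30 to 2.11 for Neat1 over Malat1. In the panels other than Neat1 over Malat1, the first RNA rose and the second fell without overlap. There the separation follows from the values of each RNA.

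The snoRNAs inside the hosts were nearly all listed at 0. Of the 28 genes, 3 were above 0 TPM in any library. Snora73b had 0, 0, 16.05 and 12.71 TPM in the LPS libraries and 1.51, 0, 0 and 4.93 TPM with UDCA. Snora73a had 3.87 TPM in LPS + UDCA replicate 4 and 0 in the rest, and Snora61 had 77.67 TPM in LPS + UDCA replicate 1 and 0 in the rest. Mature snoRNAs lack a poly(A) tail, so these values do not measure them, and the change of a host gives no value for its snoRNAs.

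Long noncoding RNAs as a class were also counted. Of the 646 tested, 25.5% were higher and 7.43% lower at both thresholds (median log2 fold change 0.52), against 7.58% and 8.76% of 10483 protein-coding genes (median 0.06). By FDR alone 51.5% were higher and 16.6% lower, against 40.3% and 34.3% of protein-coding genes. The long noncoding genes tested had lower TPM, given by transcript length under Other observations. The part of level in this difference was not tested. The 26 long noncoding genes with a snoRNA gene inside had a median of 0.16, as did the 20 left without the 6 hosts described above, and 195 protein-coding hosts had a median of 0.02. Whether hosts differ from other long noncoding RNAs was not tested. The 9 RNAs together made up 4.37% to 5.29% of all long noncoding TPM with LPS and 8.86% to 9.76% with UDCA.

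Other hosts of the family were also split. Of 14 tested rows, 0 were higher and 1 was lower at both thresholds (8.71% and 8.44% of all genes tested). By FDR alone 4 rose and 4 fell (40.2% and 32.3% of all genes). The median was 0.10, or -0.01 with median-of-ratios scaling. Snhg4 has 2 rows, under 2 identifiers, which went in opposite directions and so enter both counts by FDR. Their log2 fold changes were -0.81 (from 2.09 to 0.805 TPM, limma adjusted p = 0.02) and 0.54 (from 4.64 to 7.28 TPM, limma adjusted p = 0.0021). Snhg16 fell from 30.2 ± 2.48 to 11.9 ± 0.606 TPM (SD, n = 4), with a log2 fold change of -1.27 (limma adjusted p = 3.3e-07), and Zfas1 fell by 0.88 on the log2 scale (limma adjusted p = 7.2e-07). Snhg20 rose by 0.95 on that scale (limma adjusted p = 3.8e-05).

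Among 13 other long noncoding RNAs, 2 were higher and 1 lower at both thresholds (8.71% and 8.44% of all genes tested). By FDR alone 7 rose and 1 fell (40.2% and 32.3% of all genes), with a median of 0.44. The shares among all long noncoding RNAs tested were 51.5% and 16.6% by FDR, and 25.5% and 7.43% at both thresholds. 2900097C17Rik, the mouse Norad by RefSeq's synonyms, which binds Pumilio proteins in the cytoplasm, rose from 18.8 ± 2 to 69.7 ± 5.65 TPM (log2 fold change 1.84, limma adjusted p = 1.1e-07). Tug1 rose from 8.27 ± 1.65 to 26.2 ± 3.31 TPM (1.56, limma adjusted p = 8.7e-06). Ptgs2os2, named after the gene of the prostaglandin synthase Ptgs2, fell by 1.10 on the log2 scale (limma adjusted p = 1.6e-05).

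**Figure D3:**
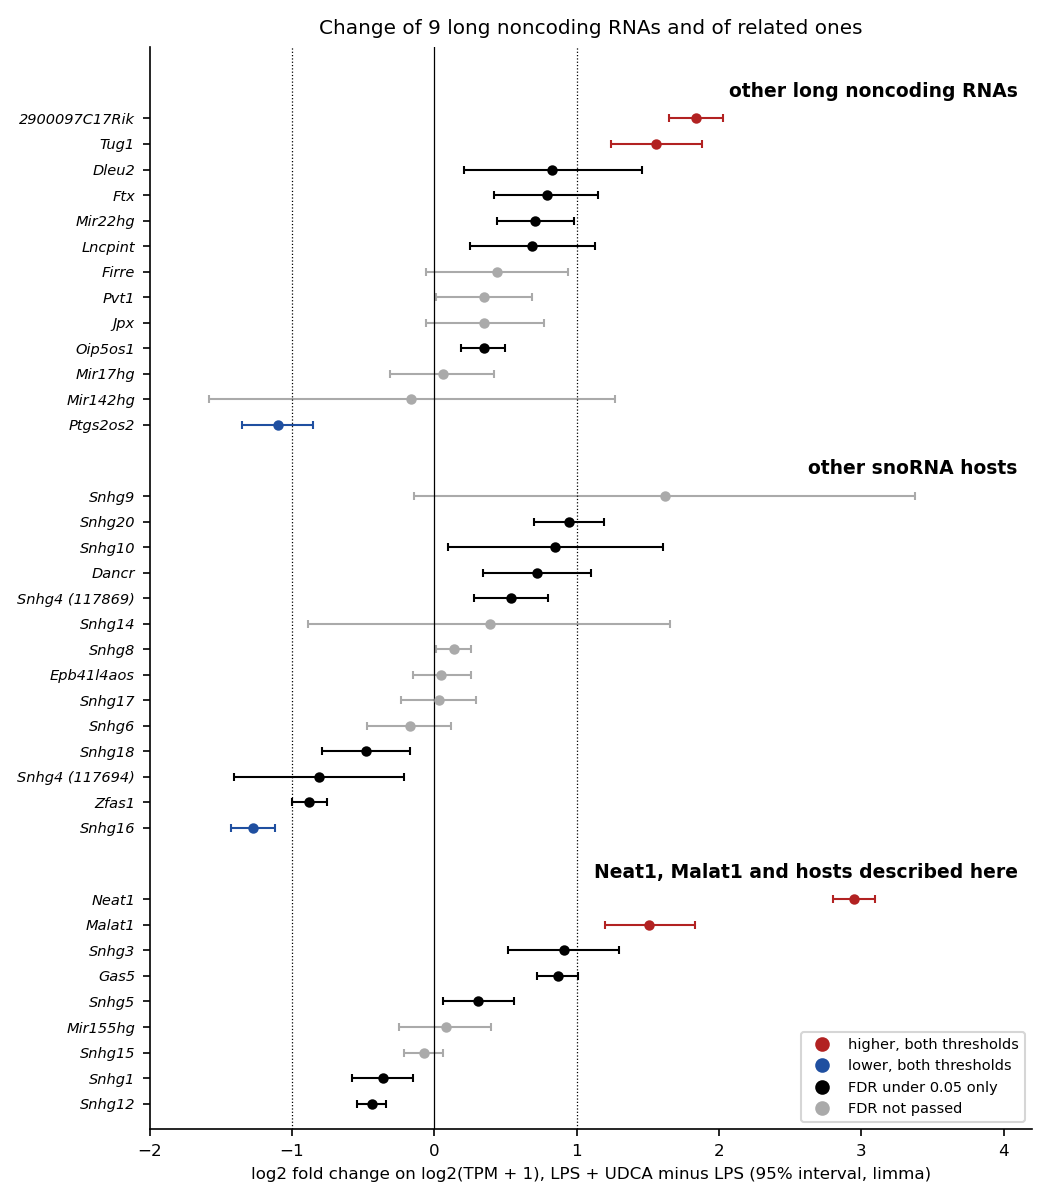
Points are log2 fold changes on log2(TPM + 1), LPS + UDCA minus LPS, with 95% intervals from limma (4 libraries per group), coloured by the thresholds passed, with dotted lines at the fold change minimum. Neat1 at 2.95 lies beyond the other RNAs shown, and the hosts lie on both sides of 0, from Snhg16 at -1.27 to Snhg20 at 0.95 among those past the FDR.

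The mRNAs of paraspeckle proteins were called about as often as genes in general (40.2% higher and 32.3% lower by FDR over all genes tested). Of 14 tested, 1 was higher and 0 lower at both thresholds, and by FDR alone 6 rose and 5 fell (median 0.05, or -0.06 with median-of-ratios scaling). Pspc1, a paraspeckle marker protein, rose from 16.0 ± 3.29 to 35.9 ± 3.79 TPM (log2 fold change 1.13, limma adjusted p = 6.9e-05). Nono, a core protein of the body, fell by 0.27 on the log2 scale (limma adjusted p = 2.8e-05). Sfpq, the other core protein, had 89.7 ± 6.11 and 84.7 ± 3.65 TPM (limma adjusted p = 0.21).

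The mRNAs of speckle and splicing proteins, the company of Malat1, were mostly higher, under each scaling tried. Of 12 tested, 4 were higher and 0 lower at both thresholds, and by FDR alone 9 rose and 2 fell (median 0.50). With median-of-ratios scaling 3 were higher at both thresholds and 8 rose by FDR. With quantile normalization these counts were 3 and 10. The shares of all genes tested were 8.71% and 8.44% at both thresholds, and 40.2% and 32.3% by FDR. Son, a scaffold of speckles, rose from 31 ± 5.14 to 72.2 ± 5.90 TPM (1.21, limma adjusted p = 8.9e-06). Rbm25 and Pnn, which act in splicing, rose by 1.19 and 1.17, and Clk1, the kinase of SR proteins, rose by 1.00 on the log2 scale (limma adjusted p = 5.5e-06, 7.5e-06 and 2.7e-06). Srsf7, an SR protein, fell by 0.33 (limma adjusted p = 0.00022).

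The mRNAs of snoRNA particle proteins were mostly lower, under each scaling tried. Of 14 tested, 0 were higher and 1 lower at both thresholds (8.71% and 8.44% of all genes tested). By FDR alone 2 rose and 8 fell (median -0.20), against 40.2% and 32.3% of all genes. Nolc1, a chaperone of the particles, fell from 103 ± 3.84 to 48.9 ± 2.36 TPM (log2 fold change -1.06, limma adjusted p = 9.8e-08). Nop56 of the box C/D particle fell by 0.68 and Nhp2 of the H/ACA particle by 0.61 (limma adjusted p = 5.4e-07 and 4.1e-07). Nop58, the partner of Nop56, rose by 0.55 (limma adjusted p = 0.0018), and Fbl, the methyltransferase, had 276 ± 2.67 and 273 ± 7.18 TPM (limma adjusted p = 0.58).

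Factors of nonsense-mediated decay, which removes Gas5 and other hosts, gave 2 higher and 0 lower of 14 at both thresholds. This compares with 8.71% and 8.44% of all genes tested. By FDR alone 6 were higher and 4 lower (median 0.08), against 40.2% and 32.3% of all genes. With median-of-ratios scaling 0 passed both thresholds and the median was -0.02. Upf3a and Upf2 each rose by 1.06 on the log2 scale (limma adjusted p = 2.4e-07 and 2.1e-05). Smg1, the kinase of Upf1, rose by 0.95 (limma adjusted p = 3.7e-05). Upf1, the helicase, fell by 0.15 and Eif4a3, of the exon junction complex, by 0.35 (limma adjusted p = 0.04 and 1.5e-05).

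Other mRNAs that begin with a pyrimidine run, besides those of ribosomal proteins, had 0 of 11 past both thresholds, and by FDR alone 4 rose and 6 fell (median -0.21), or 2 and 7 with median-of-ratios scaling. Npm1, a nucleolar chaperone, rose by 0.86 on the log2 scale, and Eef1b2, an elongation factor subunit, fell by 0.34 (limma adjusted p = 3.6e-06 and 0.00013). The 79 ribosomal protein genes had 0 past both thresholds, with 17 higher and 32 lower by FDR (median -0.05). For all genes tested the shares were 40.2% higher and 32.3% lower by FDR, and 8.71% and 8.44% at both thresholds.

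For miR-155, both its makers and its reported targets were counted. Among all genes tested, 40.2% rose and 32.3% fell by FDR, and 8.71% and 8.44% did so at both thresholds. Of 10 genes that process and load microRNAs, 0 passed both thresholds, and by FDR alone 6 rose and 3 fell (median 0.24), but with median-of-ratios scaling, and with quantile normalization, 3 rose and 4 fell. Ago3, a microRNA-binding protein, rose by 0.70 and Tarbp2, the partner of Dicer, fell by 0.34 (limma adjusted p = 0.031 and 0.00038), and Ago3 did not pass with either of these scalings. Of 9 reported targets, 2 were higher and 4 lower at both thresholds, and by FDR alone 3 rose and 5 fell (median -0.59). Bach1, a repressor of haem oxygenase, rose from 1.91 ± 0.177 to 10.8 ± 1.27 TPM (2.01, limma adjusted p = 1.6e-07), and Tab2 of the NF-κB pathway rose by 1.12 (limma adjusted p = 7.4e-07). Fos, a subunit of AP-1, fell by 2 on the log2 scale, Cebpb, a transcription factor, by 1.24, Arg2, an arginase, by 1.10 and Inpp5d, the phosphatase SHIP1, by 1.08 (limma adjusted p = 9.3e-07, 0.0043, 0.00032 and 3.1e-05). Arg2 was near the floor, at a mean of 1.79 TPM with LPS and 0.305 TPM with UDCA. The targets moved in both directions beside a host whose groups overlapped. None of these RNAs measures mature miR-155, and a link between host and targets was not tested.

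**Figure D4:**
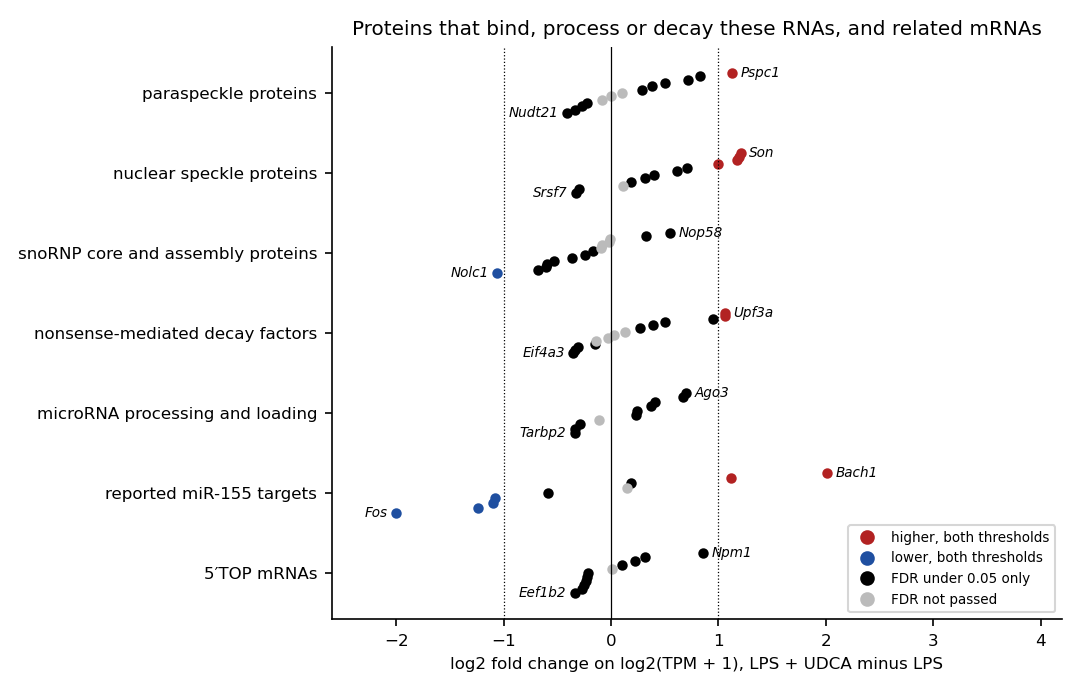
Each point is the log2 fold change of 1 gene on log2(TPM + 1), LPS + UDCA minus LPS, in 7 lists of related proteins and mRNAs, coloured by the thresholds passed, with the lowest and the highest gene shown of each list named. The mRNAs of speckle proteins lie mostly right of 0 (9 higher, 2 lower by FDR). Those of snoRNA particle (snoRNP) proteins lie mostly left of it (2 higher, 8 lower), against 40.2% higher and 32.3% lower over all genes tested.

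Neighbouring genes were listed because Neat1 lies 22.0 kb from Malat1 and Snhg3 lies on the same stretch of chromosome 4 as Snhg12. This window of 100 kb between gene ends was chosen after the values were seen. Of 48 distinct neighbours tested, 18 rose and 17 fell by FDR, with 3 higher and 5 lower at both thresholds. These shares are close to those over all genes tested (40.2% and 32.3% by FDR, 8.71% and 8.44% at both thresholds), so the values that follow describe single genes only. Around Neat1, on the side away from Malat1, Frmd8 had a log2 fold change of -0.36, Slc25a45 of 0.31 and Dpf2 of 1.04. Further along, Gm42067 had 1.75, Cdc42ep2 1.31 and Pola2 -1.35. On the side of Malat1, Ehbp1l1 had 0.41, Fam89b 0.21 and the rows of Sssca1 -0.51 and -0.24. Each of these passed the FDR. Beside Snhg12, Trnau1ap had -0.47 and Taf12 -0.45, while Snhg3, whose start is 45.1 kb away, had 0.91. Slc3a2, the amino acid transporter subunit that starts 0.106 kb from Snhg1 on the other strand, rose from 447 ± 11.4 to 895 ± 8.81 TPM (SD, n = 4), while Snhg1 fell. Zbtb37, which overlaps the start of Gas5 on the other strand, had 1.85 ± 0.429 and 4.45 ± 1.75 TPM, far below Gas5.

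**Figure D5:**
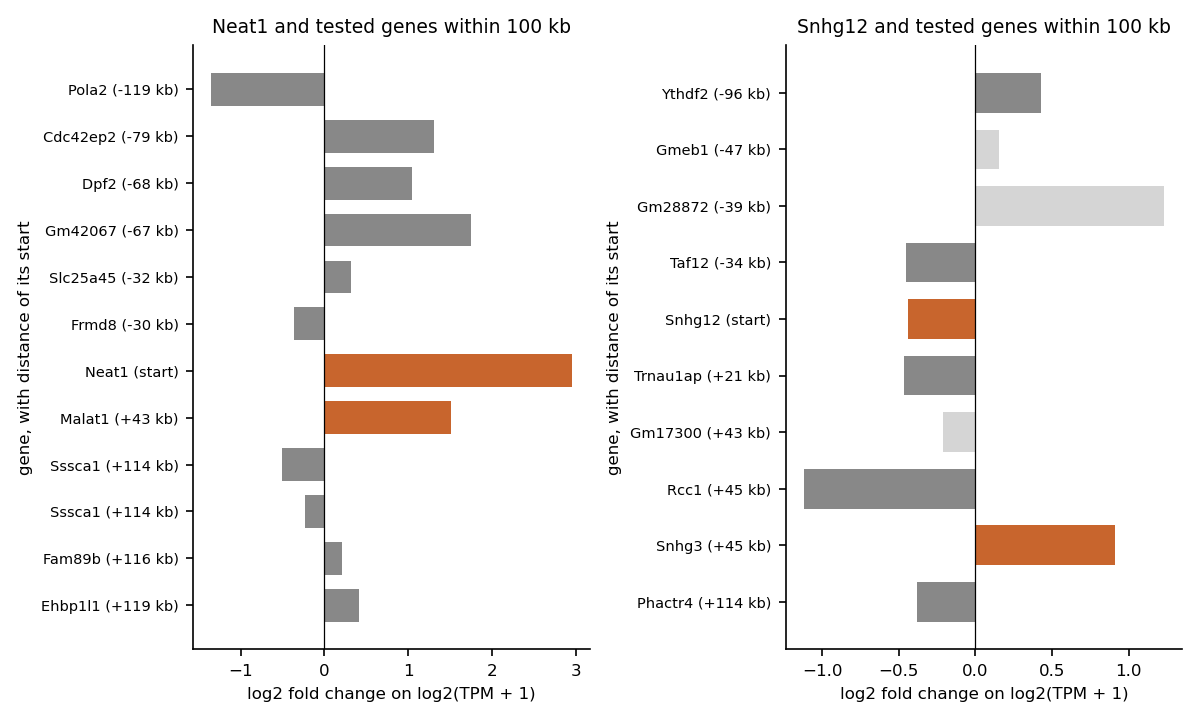
Bars are log2 fold changes on log2(TPM + 1) of tested genes other than snoRNAs within 100 kb of Neat1 (left) and Snhg12 (right), in order of the distance of their starts along the transcription of that RNA, with dark grey for genes past the FDR, light grey for the rest and orange for Neat1, Malat1, Snhg12 and Snhg3. Frmd8 at -0.36 lies next to the high bars of Neat1 and Malat1, and Snhg3 at 0.91 stands against Rcc1 at -1.12 on the same stretch.

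The genes whose pattern was nearest were sought among 7072 genes of at least 10 TPM, by the root mean square difference over the 8 libraries of log2(TPM + 1) centred on the LPS mean. For Neat1 they were Mef2b, a transcription factor, and Il23a, the p19 subunit of interleukin 23, both at 0.14. For Malat1 they were Dnajb2 at 0.14 and Tut4, a uridylyltransferase, at 0.18. For Gas5 they were Psmd6, a proteasome subunit, at 0.048 and Tbc1d15 at 0.055, and for Snhg12 Gtf2h1, of general transcription factor TFIIH, at 0.031 and H1f0, a linker histone, at 0.039. The nearest were Fkbp3 and Atpaf2 for Snhg1, Eif3j1 and Rfesd for Snhg3, Ppwd1 and Pus7 for Snhg5, Limk2 and Pih1d1 for Snhg15, and Eif4e and Metap2 for Mir155hg. The centring removes the level, so genes of very different TPM can be near, such as Mir155hg (3.66 TPM with LPS) and Eif4e (99.4 TPM). Nearness here is mostly a similar log2 fold change, such as 2.95 for Neat1, 2.88 for Mef2b and 2.82 for Il23a. Shared regulation was not tested.

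The cell type was checked by its markers. Of 10 macrophage markers 9 were tested, among them Lyz2, Cd68, Csf1r and Adgre1, and their summed TPM was 4213.62 to 4445.21 with LPS and 1981.27 to 2219.25 with UDCA. By both thresholds 1 was higher and 5 lower (8.71% and 8.44% of all genes tested), with log2 fold changes from -2.91 (Itgam) to 1.27 (Adgre1). The marker not tested was Mrc1. Summed fibroblast, epithelial, T cell and B cell markers were at most 0.49 TPM in any library. Long noncoding TPM summed to 12614.4 to 14411.4 with LPS and 14893.4 to 16805.2 with UDCA, and mitochondrial TPM to 11730.8 to 14876.4 and 10477.1 to 13745.0. The part of these shifts in the values above was not tested.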

How the data were processed

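J774A.1 cells were treated for 24 h, and 8 libraries (4 LPS, 4 LPS + UDCA) were made with a TruSeq RNA kit, which selects poly(A) RNA and does not mark strand, so a gene and its antisense partner cannot be told apart. The authors deposited TPM per gene to 2 decimals, 1 column per library. The submitters' processing notes name Bowtie 0.12.2 and the build mm10 (GRCm38). The counting program is not given in the sources used here. Libraries were grouped by their labels, and 0 pairs were identical.

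Genes averaging 1 TPM or more (11796) were fitted as log2(TPM + 1) with limma 3.58.1 (R 4.3.3; lmFit, eBayes with trend) without covariates. The call thresholds were a 2-fold minimum and an FDR (Benjamini-Hochberg) under 0.05. TPM was also compared by an exact permutation test (70 arrangements). Positions, overlaps and shared words of 31 bases are from GENCODE M21 (55227 of 55487 identifiers found), and promoters and microRNAs from RefSeq (GRCm38.p6). Tables and figures used Python 3.11.15, pandas 2.3.3 and matplotlib 3.10.9. On simulated data for this comparison (11796 genes), 198 of 200 changed genes were called with the right sign, and 2 unchanged genes were called falsely. These counts are not split by effect size or TPM. Accuracy for small log2 fold changes, or for low values such as those of Mir155hg, was not tested. Nor was it tested with as many changed genes as in the data (40.2% higher and 32.3% lower by FDR). Alternatives covered normalization, filter, pseudocount, trend, replicate block, thresholds and each library.

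The 9 RNAs and the lists were chosen with earlier results of these data known. Genes named are the 9, in each list the highest and lowest log2 fold change past the FDR and up to 4 each way past both thresholds, snoRNA and microRNA genes inside the 9 listed above 0, and the 2 nearest patterns for each. Snora73a and Snora73b, with the other printed sequences, Snhg5's copy pair, Rcc1, Gm17300, Gm37376, the neighbours, Sfpq, Nono, Nop56, Nhp2, Fbl, Smg1 and Upf1 were named for their role or position, after their values were seen. Some genes that enter the counts are not reported here or drawn.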

Additional observations from a re-analysis of the deposited data

Results flagged for a closer look

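The libraries of each group were examined in 36 genes (72 groups of 4) for a highest or lowest library whose gap to the nearest, divided by the range, was over Dixon's 95% critical value. Chance gives about 3.6 such groups, and 5 were found. Malat1 was highest in LPS replicate 2, at 61.43 TPM against 42.61 for the nearest library (gap over range 0.836). Clk1, the kinase of SR proteins, was lowest in LPS replicate 3, at 19.16 TPM against 23.08 (0.856). Nop58, of the box C/D particle, was highest in LPS replicate 1, at 74.16 TPM against 57.42 (0.879). Upf2, a decay factor, was highest in the same library, at 4.97 TPM against 3.83 (0.870). Upf3a, its partner, was highest in LPS + UDCA replicate 3, at 31.12 TPM against 30.05 (0.836).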

How the results depend on the processing

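Each of the 9 RNAs was fitted under 15 alternatives, and the median log2 fold change of all genes was also taken off, which gives no new p. The counts past both thresholds, 2 higher and 0 lower, became 5 and 2 with no fold change minimum, and those over the related lists (11 higher and 7 lower of 111 rows tested) became 47 and 38. No other alternative moved a count by over 1.5 times, and leaving out each library gave 9 to 14 higher and 6 to 7 lower in the lists. The counts by FDR alone, followed under the same alternatives after the data were seen, were 4 to 5 higher and 2 to 3 lower, the third lower RNA being Snhg15 with median-of-ratios scaling. Over all genes tested, median-of-ratios scaling gave 810 higher and 1167 lower in place of 1028 and 995. Snhg3 passed the fold change minimum (1.01) without LPS + UDCA replicate 2. The log2 fold change of Mir155hg reversed, to -0.01 with median-of-ratios scaling, -0.03 with quantile normalization, -0.04 without LPS + UDCA replicate 4 (-0.04 to 0.18 over the 8 settings that leave out a library) and -0.0024 with the all-gene median taken off. The cause was not tested. Neat1 stayed between 2.84 and 3.07, Malat1 between 1.41 and 1.67 and Gas5 between 0.76 and 0.96 over their alternatives.

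The groups share replicate numbers, but deviations of same-numbered libraries correlated by -0.035 to 0.15 and of others by -0.14 to 0.16, so the libraries were taken to share only a number. With the replicate block the counts stayed at 2 higher and 0 lower past both thresholds and 5 and 2 by FDR, and the adjusted p of Snhg5 was 0.005. TPM keeps no depth, which limits statements on low values such as Mir155hg. With 4 libraries per group, no exact permutation p can be below 0.029.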

Other observations

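Long noncoding genes were also grouped by their longest annotated transcript, a description added after the values were seen. The median log2 fold change was 0.58 in 255 genes under 1000 bases, 0.52 in 287 genes from 1000 to under 3000 bases and 0.45 in 104 genes of 3000 bases or more, and 26.3%, 26.1% and 22.1% were higher at both thresholds. For protein-coding genes the medians in these classes were -0.13, -0.06 and 0.16. The median TPM in these classes was 2.85, 2.67 and 2.56 for long noncoding genes and 56, 24.1 and 12.6 for protein-coding genes. Neat1 and Malat1 belong to the longest class.

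The 1507 snoRNA rows of the table, of which 37 were above 0 TPM in any library, summed to 86.75 to 125.86 TPM with LPS and 283.83 to 394.78 TPM with UDCA. Snora61 alone gave 77.67 TPM of the sum in LPS + UDCA replicate 1.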
